A study of Mus musculus with 8 samples.

Results

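The genes that make up the first steps of Wnt signalling were followed in mouse embryonic stem cells (ESCs) from which LIF, a GSK3 inhibitor or a MEK inhibitor had been left out. They comprise the Wnt ligands, the proteins that release them, their receptors and co-receptors, the secreted antagonists, the R-spondins and the Dishevelled proteins. Members were chosen by gene symbol alone, and 54 of the 38991 genes measured matched. They are 19 Wnt ligands, 2 genes for ligand secretion, 10 Frizzled receptors, 2 LRP co-receptors, 3 ROR or RYK receptors, 5 Frizzled-related antagonists (the Sfrp genes and Wif1), 4 Dickkopf antagonists, 2 Kremen receptors for Dickkopf proteins, 4 R-spondins and 3 Dishevelled genes.

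Wnt proteins are lipid-modified by Porcupine, carried to the cell surface by Wntless and bound there by Frizzled receptors. With the co-receptors Lrp5 or Lrp6, binding recruits Dishevelled proteins and stops GSK3 from marking β-catenin for destruction, after which β-catenin acts with TCF/LEF factors on target genes such as Axin2. Ligands such as Wnt5a and Wnt5b are better known for signalling without β-catenin, through Ror1, Ror2 or Ryk. Sfrp proteins and Wif1 bind the ligands, Dickkopf proteins block the LRP co-receptors with Kremen proteins, and R-spondins raise the amount of Frizzled and LRP at the surface. In ESC culture the inhibitor CH (CHIR99021) acts on GSK3 directly, below the ligands and receptors described here.

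All cells were of RGd2 (Rex1GFPd2), 1 ESC line of mouse strain 129 at passage 11 whose Rex1 (Zfp42) locus carries a short-lived GFP. After 6 passages in 2i (CH with the MEK inhibitor PD, PD0325901), they spent 5 passages on gelatin in N2B27, a serum-free medium, with 1 of 4 combinations: 2i+LIF (CH at 3 µM, PD at 1 µM and the cytokine LIF), 2i (no LIF), LIF+PD (no CH) or CH+LIF (no PD). Cells were split every 3 days and seeded at 15000 per square centimetre. Each condition had 2 cultures, 8 in all, and all 4 conditions share the same line, medium and earlier growth in 2i. Because 2i holds no LIF, the 2i cultures stayed with their earlier factors, and LIF was new to the other conditions. Below, without LIF or LIF left out means 2i compared with 2i+LIF, not a removal of LIF from growing cells. RNA-seq gave each gene's FPKM, the fragments per kilobase of transcript scaled to library size, so that levels can be set beside each other between genes. Comparisons used limma on log2(FPKM + 1), on which scale the change of a weakly expressed gene is understated. A gene was called when its Benjamini-Hochberg adjusted p over all 12927 genes tested was below 0.05.

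The cultures carried the ESC marker Pou5f1 at an FPKM of 1625 to 2269, and genes that read out each pathway moved with the factor left out. Socs3, a LIF target, stood at 63.9 and 79.0 in 2i+LIF and at 2.59 and 1.29 in 2i. Axin2 was at 61.4 and 59.4 in 2i+LIF and at 1.85 and 2.46 in LIF+PD. Spry4 and Dusp6, which MEK signalling induces, were at most 2.17 and 5.64 in 2i+LIF and at least 37.5 and 26.5 in CH+LIF. Relative depth, judged from weakly expressed genes, was between 0.5 (2i replicate 1) and 1.18 (CH+LIF replicate 2) of that of 2i+LIF replicate 1. Nothing in the labels says that the 2 cultures of a condition were grown apart from the start, so the p-values measure the spread between these samples, which may be technical. In bulk RNA, fewer cells that express a gene and less of its RNA per cell cannot be told apart.

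Of the 54 genes, 28 reached an FPKM of 1 in 2 or more cultures and were tested. The other 26 were below this level, and 3 of them (Wnt1, Wnt2 and Wnt10b) are listed at 0 in every culture. In 13 of the 28 the FPKM was at least 1 in all 8 cultures, and 15 fell below 1 in at least 1 culture, so some entered the test through the condition in which they were high. Wnt5a, Wnt7b and Sfrp5 passed only through the LIF+PD cultures, Wnt8a only through those of 2i and Fzd6 only through those of CH+LIF. Increases of these genes in those conditions are therefore not independent of the filter. Without LIF, 10 of the 28 were called, 6 higher and 4 lower, where 18.6% of all genes tested were called (9.77% higher and 8.86% lower). Without CH, 12 were called, 7 higher and 5 lower, where 25.2% of all genes were called (14.8% higher and 10.4% lower). Without PD, 11 were called, 5 higher and 6 lower, where 25.4% of all genes were called (12.2% higher and 13.3% lower). This last count fell when any culture of CH+LIF or 2i+LIF was left out, and so did the count over all genes. Only 3 of the 11 calls held in every alternative that retained the gene. The median log2 difference of the 28 genes was 0.09, 0.00094 and -0.05 in these 3 comparisons, and that of all genes tested was 0.04, 0.03 and 0.0070. Among the 13 genes at or above 1 throughout, tested in the 10354 genes of that kind, 4, 5 and 7 were called, where 17.9%, 25.2% and 28.2% of those genes were. Of these calls 1 was higher and 3 lower without LIF, 1 and 4 without CH, and 2 and 5 without PD. The 10354 genes gave 973 increases and 882 decreases, 1451 and 1156, and 1440 and 1479. The 3 comparisons share the 2i+LIF cultures.

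**Figure D1:**
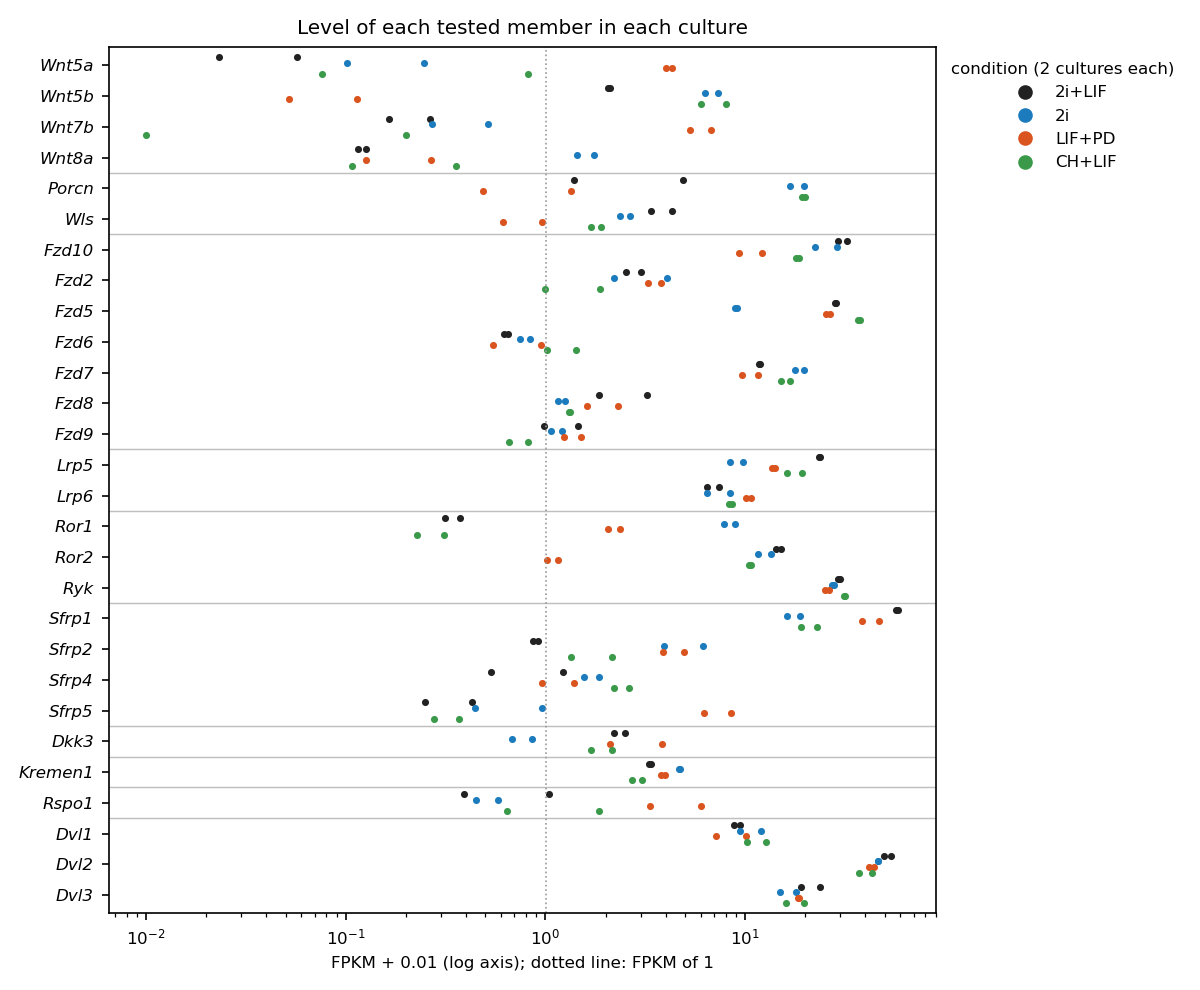
FPKM of the 28 tested genes in each of the 8 cultures, on a log axis after 0.01 was added, with 2 points per condition and grey lines between the functional groups. Sfrp1 and Dvl2 lie nearest the right edge, and the Wnt ligands lie below 10 in every culture.

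The Wnt ligands as a group were weakly transcribed in 2i+LIF and higher when any of the factors was left out, and which ligand was present differed between conditions. Summed over the 19 genes, the FPKM was 3.60 and 3.33 in 2i+LIF, 11.85 and 10.01 in 2i, 13.45 and 11.83 in LIF+PD, and 10.95 and 8.50 in CH+LIF. Every culture of the 3 other conditions was therefore above both 2i+LIF cultures. Wnt5b made up 59.9% of the sum in 2i+LIF, 62.4% in 2i and 71.8% in CH+LIF, as the mean of 2 cultures, and 0.592% in LIF+PD. In LIF+PD, Wnt7b held 47.2% and Wnt5a 32.8% of it.

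**Figure D2:**
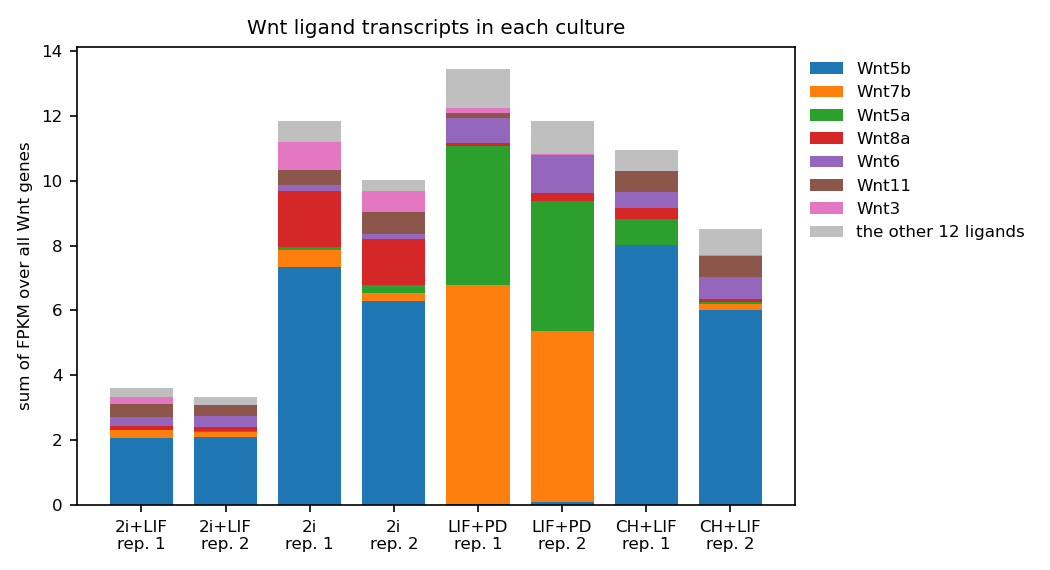
Sum of the FPKM of 19 Wnt genes in each culture, split by ligand. Wnt5b fills most of the bars of 2i+LIF, 2i and CH+LIF, and Wnt7b and Wnt5a fill most of the LIF+PD bars.

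Wnt5b had an FPKM of 2.05 and 2.09 in 2i+LIF, 7.35 and 6.27 in 2i, 8.01 and 6.00 in CH+LIF, and 0.0417 and 0.103 in LIF+PD. The 4 conditions fell into 3 levels, with 2i and CH+LIF overlapping at the top and LIF+PD near 0. Its mean was 3.29 times that of 2i+LIF in 2i (log2 difference 1.34 ± 0.17 (SE), adjusted p = 0.00244) and 3.38 times in CH+LIF (1.37 ± 0.17, adjusted p = 0.00221). In LIF+PD it was lower by limma, with a log2 difference of -1.52 ± 0.17 and an adjusted p of 0.00108.

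Its gene (chromosome 6, 119432531 to 119544347, minus strand) has 3 start sites in RefSeq. Promoter windows from RefSeq (250 bases before and 50 after a start) were searched for some of the called genes. Of these genes, Wnt5b and Fzd7 were the ones holding a TCF/LEF motif, and Wnt5b also held a STAT motif at another start. These windows are printed 5′ to 3′ with the motif in capitals, together with that of Ror2, the gene with the lowest log2 difference after CH was left out, which held neither motif. The TCF/LEF letters searched were CTTTGAA, the variant CTTTGAT, the variant CTTTGTA and the variant CTTTGTT, and the STAT letters TTCNNNGAA, both on either strand.
Wnt5b, first window (GRCm38.p6, chr6:119449337-119449636, minus strand), with CTTTGAT at -71 from the start: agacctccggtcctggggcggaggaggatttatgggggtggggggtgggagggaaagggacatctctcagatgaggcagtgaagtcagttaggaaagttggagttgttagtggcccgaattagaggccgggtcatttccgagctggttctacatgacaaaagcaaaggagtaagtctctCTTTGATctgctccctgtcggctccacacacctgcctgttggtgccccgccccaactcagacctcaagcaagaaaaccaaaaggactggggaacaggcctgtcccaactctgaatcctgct
Wnt5b, second window (chr6:119467162-119467461, minus strand), with TTCCTGGAA at -159: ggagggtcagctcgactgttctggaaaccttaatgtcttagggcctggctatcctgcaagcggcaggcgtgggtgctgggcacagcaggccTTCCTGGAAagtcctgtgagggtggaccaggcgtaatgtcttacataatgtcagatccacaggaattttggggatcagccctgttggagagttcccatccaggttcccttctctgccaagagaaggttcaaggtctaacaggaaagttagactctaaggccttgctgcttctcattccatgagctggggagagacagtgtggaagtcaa
Fzd7 (chr1:59481897-59482196, plus strand), with AACAAAG, a TCF/LEF match on the other strand, at -130: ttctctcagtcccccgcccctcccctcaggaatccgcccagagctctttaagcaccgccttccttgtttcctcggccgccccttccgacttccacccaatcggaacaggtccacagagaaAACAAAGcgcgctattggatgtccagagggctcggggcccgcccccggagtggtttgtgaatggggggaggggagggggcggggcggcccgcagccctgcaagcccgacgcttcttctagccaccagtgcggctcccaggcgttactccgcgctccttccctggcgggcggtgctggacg
Ror2 (chr13:53286075-53286374, minus strand), no match: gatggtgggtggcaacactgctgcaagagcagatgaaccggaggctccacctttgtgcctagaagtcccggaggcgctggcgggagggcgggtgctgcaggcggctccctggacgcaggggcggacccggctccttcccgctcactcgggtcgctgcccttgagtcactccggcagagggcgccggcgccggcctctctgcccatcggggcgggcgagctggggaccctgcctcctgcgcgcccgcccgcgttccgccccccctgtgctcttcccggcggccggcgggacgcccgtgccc
The counts that follow cover windows of 36 of the 54 genes, 39 windows in all. The other genes were left out of them, which does not mean that RefSeq lists no start for them. Fzd8 was among those left out, as were the called genes Wnt8a, Wnt5a, Wnt7b, Porcn, Sfrp1, Lrp5, Lrp6, Sfrp4 and Dkk3. Whether their promoters hold either motif is not given here. A TCF/LEF match occurred in 5 of the 39, those of Wnt5b, Fzd7, Wnt11, Wnt3 and Dkk1, while 16.9% of 32851 mouse promoters of this length held one. The STAT match was the only one in the 39 windows, and 8.30% of all promoters held one. Gene-level FPKM does not separate the 3 Wnt5b starts, and a match of letters is a description and not a binding site.

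Of the ligands that passed the filter, Wnt7b and Wnt5a rose when CH was left out, and both passed it only through the LIF+PD cultures. Wnt7b was at 6.73 and 5.26 in LIF+PD and between 0 and 0.507 in the 6 other cultures, and its log2 difference from 2i+LIF was 2.53 ± 0.20 (adjusted p = 0.000333). Wnt5a was at 4.29 and 4.00 in LIF+PD, at 0.0131 and 0.0472 in 2i+LIF, at 0.0920 and 0.237 in 2i, and at 0.810 and 0.0658 in CH+LIF. For Wnt5a the difference between LIF+PD and 2i+LIF was 2.32 ± 0.26 (adjusted p = 0.00117), and the 2 CH+LIF cultures differed from each other more than those of any other condition did in ratio. Each gene has an antisense partner that shares exon bases with it (AU022754 with Wnt7b, Gm2670 with Wnt5a), and these were listed at no more than 0.0711 and 0.0342 in any culture.

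Wnt8a, a ligand of the primitive streak, was higher in 2i than in 2i+LIF, and it passed the filter only through the 2i cultures. It was at 0.116 and 0.106 in 2i+LIF and at 1.74 and 1.44 in 2i, a log2 difference of 1.22 ± 0.19 (adjusted p = 0.00589). The 4 cultures of LIF+PD and CH+LIF lay between 0.0977 and 0.348, below both 2i cultures.

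Markers of other cell types moved between the same cultures, and their part in the ligand values and in those that follow was not tested. The summed FPKM of 4 markers of primed epiblast was 35.7 to 38.0 in 2i+LIF, 56.5 to 84.0 in 2i, 96.2 to 104.1 in LIF+PD and 69.1 to 71.9 in CH+LIF. For 5 neural progenitor markers it was 7.44 to 8.07, 13.2 to 15.6, 21.2 to 21.3 and 3.68 to 4.01 in the same order, and Pax6, the highest of these in LIF+PD, reached 11.3 there. The rise of this sum in 2i was not shared by Nes, at 4.901 and 4.096 in 2i+LIF and 2.785 and 3.137 in 2i. Of the 4 neural markers tested, 1 was called higher and 0 lower without LIF, with a median log2 difference of -0.016. The 6 mesoderm and streak markers summed to 12.9 to 15.5, 12.4 to 23.4, 9.63 to 9.98 and 29.0 to 48.1, with Brachyury (T) at 36.4 and 18.5 in CH+LIF and 0.161 and 0.210 in LIF+PD. Gsc of that list had another profile, at 7.71 and 6.26 in 2i+LIF, 6.77 and 6.10 in LIF+PD, and 0.654 and 0.499 in CH+LIF. Trophectoderm markers summed to 33.8 to 35.9, 43.8 to 44.0, 61.6 to 72.5 and 17.6 to 18.1, mostly Tfap2c, and Elf5 and Hand1 were at most 0.555 in any culture. Cdx2, another of these markers, was at 10.2 and 7.91 in 2i+LIF, 12.2 and 10.6 in 2i, 1.90 and 0.733 in CH+LIF, and 0.0433 and 0.0960 in LIF+PD. Gata3, also on this list, went the other way in LIF+PD, at 14.4 and 18.4. It was at 2.10 and 0.462 in 2i+LIF, 1.70 and 6.83 in 2i, and 0.0254 and 0.426 in CH+LIF. Endoderm markers summed to at most 5.27 and fibroblast markers to at most 4.19 in any culture, and Dcn and Lum were listed at 0 in all 8. The 7 ESC markers summed to 3360 to 3807, 2932 to 3185, 2936 to 3103 and 3353 to 3518. Of these, 0 were called higher and 3 lower without LIF, 1 and 3 without CH, and 0 and 2 without PD. Over all genes tested, 18.6%, 25.2% and 25.4% were called. Klf4 was at 202.9 and 196.4 in 2i+LIF and 47.7 and 50.6 in 2i. Nanog was at 548.9 and 476.4 in 2i+LIF and 305.5 and 283.0 in CH+LIF.

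Both genes for ligand release changed, and relative to 2i+LIF their calls went in opposite directions in CH+LIF. In LIF+PD both differences were negative, that of Wls with a call and that of Porcn without. Porcn, which encodes the acyltransferase Porcupine, was at 4.90 and 1.38 in 2i+LIF, 19.7 and 16.8 in 2i, 20.05 and 19.3 in CH+LIF, and 0.478 and 1.34 in LIF+PD. The limma difference from 2i+LIF was 2.36 ± 0.41 in 2i (adjusted p = 0.00847) and 2.46 ± 0.41 in CH+LIF (adjusted p = 0.00620), and -1.01 ± 0.41 in LIF+PD, which did not pass (adjusted p = 0.112). The 2i+LIF cultures stood apart from each other: the deposited bounds ran from 3.72 to 6.09 in replicate 1 and from 0.692 to 2.09 in replicate 2. The second of them was close to the higher LIF+PD culture, whereas both were far below every 2i and CH+LIF culture. Both calls held when either 2i+LIF culture was left out.

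Wls, encoding the carrier Wntless, was highest in 2i+LIF at 4.31 and 3.35. It was at 2.36 and 2.64 in 2i, 1.68 and 1.90 in CH+LIF, and 0.602 and 0.954 in LIF+PD, with no overlap between the 4 conditions. The log2 difference was -1.44 ± 0.18 in LIF+PD (adjusted p = 0.00166), -0.79 ± 0.18 in CH+LIF (adjusted p = 0.0183) and -0.46 ± 0.18 in 2i (adjusted p = 0.116). The CH+LIF call was lost when 2i+LIF replicate 1 or either CH+LIF culture was left out (adjusted p between 0.0578 and 0.105).

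Among the Frizzled receptors, Fzd5, Fzd10 and Fzd7 were the most abundant, and their profiles over the 4 conditions differed. Summed over the 10 genes, the FPKM was 79.1 ± 2.72 (SD, n = 2) in 2i+LIF, 60.8 ± 4.95 in 2i, 55.7 ± 1.89 in LIF+PD and 77.8 ± 2.26 in CH+LIF. Fzd10 held 39.0% and Fzd5 35.9% of the sum in 2i+LIF. Without LIF the share of Fzd5 was 14.8%, and without CH that of Fzd10 was 19.2%.

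Fzd5 was at 28.2 and 28.6 in 2i+LIF, 9.07 and 8.84 in 2i, 26.6 and 25.3 in LIF+PD, and 36.6 and 37.7 in CH+LIF. The 2i cultures were lower than all others, and the CH+LIF cultures higher than all others. The log2 difference from 2i+LIF was -1.56 ± 0.081 in 2i (adjusted p = 8.23e-05) and 0.38 ± 0.081 in CH+LIF (adjusted p = 0.0161). The increase in CH+LIF lost its call without either 2i+LIF culture or either CH+LIF culture (adjusted p between 0.0653 and 0.0810). In LIF+PD the difference was -0.12 ± 0.081 (adjusted p = 0.299). Fzd5 shares 1233 exon bases with Gm38058 on the other strand, a gene not analysed here.

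Fzd10 was at 32.5 and 29.3 in 2i+LIF, 28.8 and 22.4 in 2i, 12.1 and 9.35 in LIF+PD, and 18.03 and 18.6 in CH+LIF. It fell without CH (-1.45 ± 0.16, adjusted p = 0.00101) and, less far, without PD (-0.72 ± 0.16, adjusted p = 0.0170), and the 2 of these conditions also differed from each other, CH+LIF being higher by 0.73 ± 0.16 (adjusted p = 0.0129), a call lost without either CH+LIF culture or LIF+PD replicate 2 (adjusted p between 0.0569 and 0.0697). In 2i its difference from 2i+LIF was -0.27 ± 0.16 (adjusted p = 0.276). The fall without PD was not called when any culture of 2i+LIF or CH+LIF was left out (adjusted p between 0.0567 and 0.0923).

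Fzd7, a receptor long studied in ESCs, was at 11.8 in both 2i+LIF cultures, at 19.7 and 17.8 in 2i, at 15.2 and 16.7 in CH+LIF, and at 9.66 and 11.6 in LIF+PD. Its log2 difference was 0.62 ± 0.12 in 2i (adjusted p = 0.0124) and 0.40 ± 0.12 in CH+LIF (adjusted p = 0.0456). Neither call held in every alternative: that in 2i was lost without either 2i+LIF culture or without 2i replicate 1 (adjusted p between 0.0627 and 0.0680), and that in CH+LIF in 11 of the 18 alternative settings. No call was made in LIF+PD (-0.14 ± 0.12, adjusted p = 0.412).

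Fzd2, Fzd6, Fzd8 and Fzd9 were weaker and were called in none of the comparisons with 2i+LIF. Fzd2 lay between 0.981 and 4.05, Fzd8 between 1.14 and 3.23, Fzd9 between 0.650 and 1.49, and Fzd6 between 0.534 and 1.42. The nearest to a call was Fzd8 without LIF, at a log2 difference of -0.66 ± 0.22 (adjusted p = 0.0859).

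The co-receptors Lrp5 and Lrp6 did not move together. Lrp5 was at 23.7 and 23.5 in 2i+LIF, 8.40 and 9.78 in 2i, 14.1 and 13.6 in LIF+PD, and 16.3 and 19.2 in CH+LIF, so that both 2i+LIF cultures were above every other. The log2 difference was -1.29 ± 0.12 without LIF (adjusted p = 0.000663), -0.73 ± 0.12 without CH (adjusted p = 0.00484) and -0.40 ± 0.12 without PD (adjusted p = 0.0442). The last of these was lost in 11 of the 18 alternatives, rescaling to TPM among them (adjusted p = 0.360). Lrp6 was at 6.46 and 7.36 in 2i+LIF, 6.47 and 8.37 in 2i, 8.30 and 8.60 in CH+LIF, and 10.7 and 10.1 in LIF+PD. It rose without CH by 0.53 ± 0.14 (adjusted p = 0.0312), a call lost without any single culture of 2i+LIF, LIF+PD or CH+LIF (adjusted p between 0.0515 and 0.151).

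The receptor tyrosine kinases Ror1 and Ror2, both receptors of Wnt5a, showed the highest and the lowest log2 difference of FPKM + 1 from 2i+LIF among the 28 genes. By ratio of means, weaker genes changed more in LIF+PD. Wnt5a was at 137.7 times, Wnt7b at 29.5 times and Wnt5b at 0.0350 times its mean in 2i+LIF. Ror2 was at 14.3 and 15.1 in 2i+LIF, 13.5 and 11.6 in 2i, 10.8 and 10.4 in CH+LIF, and 1.01 and 1.15 in LIF+PD. Without CH its mean was 0.0733 times that of 2i+LIF, a log2 difference of -2.92 ± 0.12 (adjusted p = 3.24e-05), and both LIF+PD cultures were below every other culture. Without PD the difference was -0.44 ± 0.12 (adjusted p = 0.0343), which was lost without any culture of 2i+LIF or CH+LIF (adjusted p between 0.106 and 0.153) and after rescaling to TPM (adjusted p = 0.189).

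Ror1 was at 0.304 and 0.365 in 2i+LIF, 7.82 and 8.90 in 2i, 2.35 and 2.05 in LIF+PD, and 0.302 and 0.217 in CH+LIF. Its mean in 2i was 25.0 times that in 2i+LIF (log2 difference 2.81 ± 0.15, adjusted p = 9.67e-05), and in LIF+PD 6.58 times (1.26 ± 0.15, adjusted p = 0.00155). CH+LIF and 2i+LIF did not overlap with the other pair of conditions, and 2i was above LIF+PD by limma as well (LIF+PD lower by 1.55, adjusted p = 0.000588). The third receptor, Ryk, was nearly level, between 25.1 and 31.7 in all 8 cultures, and was called in no comparison with 2i+LIF.

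**Figure D3:**
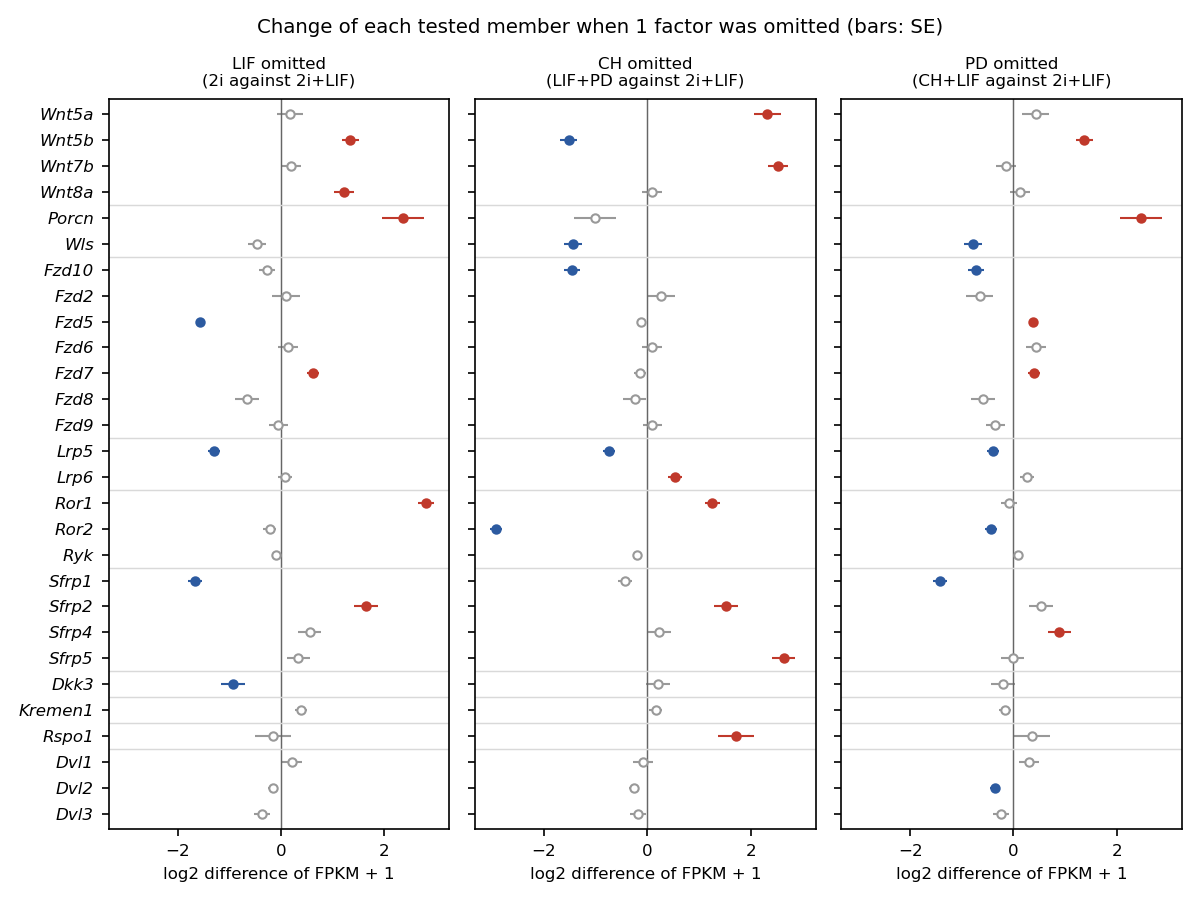
Log2 difference of FPKM + 1 from 2i+LIF for the 28 tested genes in 2i, LIF+PD and CH+LIF, with SE bars. Filled points passed an adjusted p of 0.05 (red higher, blue lower) and open points did not, with Ror2 at the far left of the LIF+PD panel and Ror1 at the far right of the 2i panel.

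Sfrp1 was the most abundant member in 2i+LIF, and it made up 92.1% of the summed FPKM of the 9 secreted antagonists there. It was at 57.0 and 58.5 in 2i+LIF, 18.7 and 16.3 in 2i, 19.0 and 23.0 in CH+LIF, and 46.9 and 38.6 in LIF+PD. Without LIF it fell by 1.67 ± 0.13 on the log2 scale (adjusted p = 0.000429) and without PD by 1.42 ± 0.13 (adjusted p = 0.00101). The LIF+PD cultures were below those of 2i+LIF as well, with a difference of -0.43 ± 0.13 that did not pass (adjusted p = 0.0552). The sum of the antagonists, most of which was Sfrp1 itself in every condition, was 62.7 ± 0.463 (SD, n = 2) in 2i+LIF. It was 26.2 ± 4.34 in 2i, 58.9 ± 6.48 in LIF+PD and 27.7 ± 2.74 in CH+LIF.

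The Sfrp1 relatives Sfrp2 and Sfrp5 rose where CH was absent, and Sfrp2 also where LIF was. Sfrp2 was at 0.856 and 0.912 in 2i+LIF, 6.13 and 3.90 in 2i, 4.95 and 3.89 in LIF+PD, and 1.34 and 2.15 in CH+LIF. The log2 difference was 1.65 ± 0.23 in 2i (adjusted p = 0.00411) and 1.52 ± 0.23 in LIF+PD (adjusted p = 0.00442), against 0.53 ± 0.23 in CH+LIF (adjusted p = 0.145). On the other strand Gm26771 shares 347 exon bases with Sfrp2, and its FPKM was 0.307 and 0.0933 in 2i+LIF, 1.64 and 0.739 in 2i, and 0.613 and 1.25 in LIF+PD. The study counted reads by strand for its own tests, but whether the FPKM program used strand is not given in the sources used here, so these values may share reads.

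Sfrp5 was at 6.20 and 8.51 in LIF+PD and between 0.240 and 0.949 in the 6 other cultures, so it passed the filter only through LIF+PD. Its difference from 2i+LIF was 2.64 ± 0.22 (adjusted p = 0.000411). Sfrp4 was at 1.21 and 0.525 in 2i+LIF, 1.85 and 1.55 in 2i, 1.38 and 0.956 in LIF+PD, and 2.62 and 2.19 in CH+LIF. It was called in CH+LIF (0.89 ± 0.22, adjusted p = 0.0272), and this was lost without 2i+LIF replicate 2 or either CH+LIF culture (adjusted p between 0.0720 and 0.136).

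**Figure D4:**
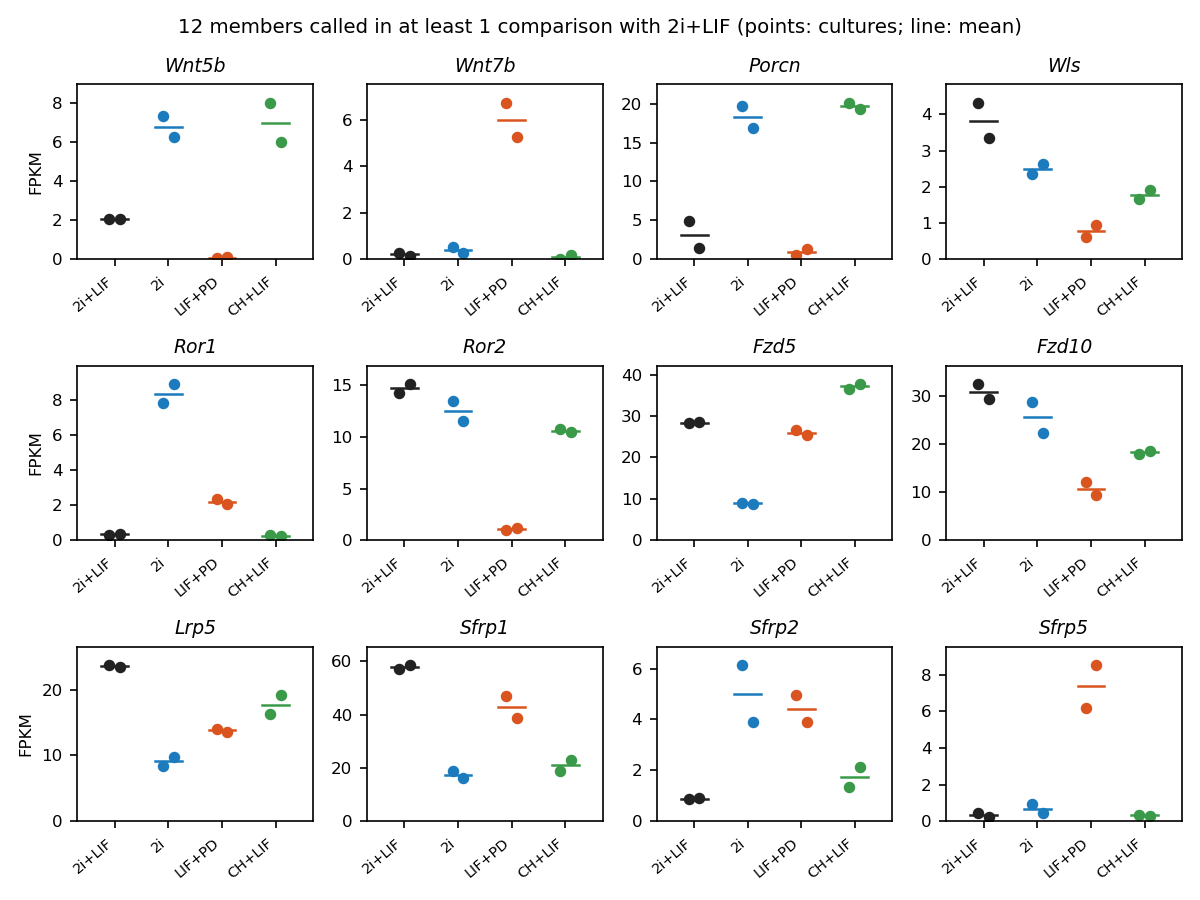
FPKM, on linear axes from 0, of 12 genes called in at least 1 comparison with 2i+LIF, with points for cultures and lines for the mean of 2. Wnt7b and Sfrp5 are high in LIF+PD alone, Ror2 is low there, and Porcn and Wnt5b are high in 2i and CH+LIF.

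Of the Dickkopf family, Dkk3 was the only gene that was tested. Its protein, unlike the others of the family, is not known as a blocker of the LRP co-receptors. It was at 2.48 and 2.19 in 2i+LIF, 0.849 and 0.671 in 2i, 3.81 and 2.09 in LIF+PD, and 2.16 and 1.67 in CH+LIF. Without LIF it was lower by 0.92 on the log2 scale (SE 0.23, adjusted p = 0.0330), with both 2i cultures below all others, but the call was lost without any single culture of 2i+LIF, 2i or CH+LIF (adjusted p between 0.0505 and 0.142). Kremen1, a receptor for Dickkopf proteins, lay between 2.71 and 4.73 and was called in no comparison with 2i+LIF. It was highest in the 2i cultures, at 4.73 and 4.66, and lowest in those of CH+LIF, at 2.71 and 3.05.

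Rspo1, the R-spondin that passed the filter, rose when CH was left out. It was at 0.379 and 1.04 in 2i+LIF, 0.439 and 0.566 in 2i, 6.02 and 3.33 in LIF+PD, and 0.634 and 1.84 in CH+LIF. The log2 difference in LIF+PD was 1.72 ± 0.35 (adjusted p = 0.0129), and it was lost without 2i+LIF replicate 1 or LIF+PD replicate 1 (adjusted p of 0.0778 and 0.0743). The deposited bounds of this gene were wide, from 1.03 to 5.69 in LIF+PD replicate 2.

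The Dishevelled genes, which carry the signal from the receptors, stayed within a narrow range. Dvl2 was at 49.9 and 53.7 in 2i+LIF, 46.1 and 46.6 in 2i, 41.7 and 44.4 in LIF+PD, and 37.3 and 43.2 in CH+LIF. The log2 difference in CH+LIF, -0.36 ± 0.096, was called (adjusted p = 0.0338), and it was lost after rescaling to TPM (adjusted p = 0.401) and when any of 5 cultures was left out (adjusted p between 0.0518 and 0.167). Dvl2 also shares 1151 exon bases with Acadvl on the other strand, which was between 8.23 and 12.5 in all cultures. Dvl3 lay between 14.9 and 23.8 and Dvl1 between 7.13 and 12.7, and neither was called.

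The conditions other than 2i+LIF were also compared with each other. LIF+PD differed from 2i in 16 of the 28 genes, where 25.1% of all genes were called, and from CH+LIF in 16, where 30.4% were called. The count against CH+LIF fell without CH+LIF replicate 1 or LIF+PD replicate 1, and so did that over all genes. CH+LIF and 2i differed in 6, where 23.9% were called: Fzd5 and Lrp5 were higher in CH+LIF, and Ror1, Sfrp2, Wnt8a and Kremen1 were lower. The Kremen1 call was lost in 6 alternatives, among them each of those leaving out a culture of these conditions (adjusted p between 0.0518 and 0.0974), and that of Sfrp2 in 3 (up to 0.0852). The differences were 1.94 ± 0.081 for Fzd5 (adjusted p = 3.40e-05) and -2.89 ± 0.15 for Ror1 (adjusted p = 7.87e-05). Of the LIF+PD differences from CH+LIF, the highest in absolute size on the log2(FPKM + 1) scale was that of Porcn, which was 3.47 ± 0.41 higher in CH+LIF (limma adjusted p = 0.00109). Some weaker genes changed more by ratio of means. That of LIF+PD to CH+LIF was 0.0461 for Porcn, 0.0104 for Wnt5b, 62.9 for Wnt7b and 23.4 for Sfrp5. Fzd2 (lower in CH+LIF by 0.92, adjusted p = 0.0382) and Ryk (0.28 ± 0.077 higher in CH+LIF, adjusted p = 0.0312) were called there, each lost in 8 alternatives.

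The 26 genes that were not tested were weak throughout, and 7 of them reached an FPKM of 0.5 in some culture. Wnt6 was at 0.287 and 0.349 in 2i+LIF, 0.192 and 0.148 in 2i, 0.765 and 1.17 in LIF+PD, and 0.493 and 0.688 in CH+LIF. Wnt3, which like Wnt8a marks the primitive streak, was at 0.870 and 0.640 in 2i and between 0 and 0.217 elsewhere. Wnt11 was at 0.382 and 0.342 in 2i+LIF, 0.453 and 0.675 in 2i, 0.644 and 0.624 in CH+LIF, and 0.150 and 0 in LIF+PD.

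Dkk1, the best known Dickkopf antagonist and a β-catenin target in many tissues, was at 0.201 and 0.622 in 2i+LIF, 0.0803 and 0.0414 in 2i, 0.240 and 0.266 in LIF+PD, and 0.206 and 0.170 in CH+LIF. Kremen2 was at 0.513 and 0.383 in 2i+LIF, 0.0935 and 0.145 in 2i, 0.326 and 0.568 in LIF+PD, and 0.2001 and 0.592 in CH+LIF. The receptor Fzd3 was at 1.03 and 0.554 in CH+LIF and between 0.270 and 0.414 in the 6 other cultures. Fzd4 was at 0.281 and 0.746 in 2i+LIF, 0.820 and 0.819 in 2i, 0.855 and 0.867 in CH+LIF, and 0.255 and 0.340 in LIF+PD. None of these 7 was above 1.17, a level at which the deposited bounds are wide.

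The other 19 stayed below 0.5 in every culture: Wnt1, Wnt2, Wnt2b, Wnt3a, Wnt4, Wnt7a, Wnt8b, Wnt9a, Wnt9b, Wnt10a, Wnt10b, Wnt16, Fzd1, Wif1, Dkk2, Dkk4, Rspo2, Rspo3 and Rspo4. Their highest value was 0.413, that of Wnt3a in CH+LIF. When the filter on low values was dropped, 7 of the untested genes were called in a comparison with 2i+LIF. They were Wnt3 (0.67 ± 0.12, adjusted p = 0.0253) and Rspo3 (0.38 ± 0.085, adjusted p = 0.0452) in 2i, where 9.99% of 21092 genes were called, and Wnt10a, Wnt6, Fzd1 and Rspo2 in LIF+PD, where 14.6% were. The log2 differences of these last were between 0.25 (Fzd1) and 0.57 (Wnt6), with adjusted p between 0.0150 and 0.0447. Wnt3a was called in CH+LIF (0.42 ± 0.085, adjusted p = 0.0290), where 12.9% of genes were.

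Beyond the ligands and receptors, 59 other genes of the pathway were taken from 6 lists, and 44 were tested. Without LIF 5 rose and 7 fell (median log2 difference -0.03), without CH 7 rose and 9 fell (0.0068), and without PD 3 rose and 7 fell (0.01). Over all genes tested, 18.6%, 25.2% and 25.4% were called in these comparisons. Lef1, a TCF/LEF factor and itself a β-catenin target, was at 6.02 and 5.46 in 2i+LIF, 37.1 and 36.4 in 2i, and 31.3 and 17.9 in CH+LIF. It had the highest increase of the lists in 2i (2.49 ± 0.23, adjusted p = 0.000712) and in CH+LIF (1.88 ± 0.23, adjusted p = 0.00220). Tcf7l1, the TCF factor that represses naïve genes, was at 147.0 and 140.5 in 2i+LIF and at 43.5 and 53.6 in CH+LIF (-1.55 ± 0.11, adjusted p = 0.000364), and in LIF+PD it was higher by 0.53 ± 0.11 (adjusted p = 0.0120). Axin2 had the largest decrease without CH, at -4.29 ± 0.11 (adjusted p = 6.50e-06).

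Further genes were named by rank within these lists. Ankrd6 (Diversin), a Dishevelled-binding protein, rose in 2i by 1.19 ± 0.12 (adjusted p = 0.00109) and in LIF+PD by 1.18 ± 0.12 (adjusted p = 0.000794). Tpbg, a membrane protein that inhibits Wnt signalling through β-catenin, was lower in 2i (-1.49 ± 0.20, adjusted p = 0.00311), CH+LIF (-1.32 ± 0.20, adjusted p = 0.00458) and LIF+PD (-0.88 ± 0.20, adjusted p = 0.0183). The R-spondin receptor Lgr4 was at 10.6 and 8.61 in 2i+LIF, and it was higher at 22.9 and 16.2 in LIF+PD (0.94 ± 0.18, adjusted p = 0.0102) and at 17.9 and 15.9 in 2i (0.76 ± 0.18, adjusted p = 0.0288). Celsr1 was lower in 2i (-0.99 ± 0.19, adjusted p = 0.0124) and LIF+PD (-0.68 ± 0.19, adjusted p = 0.0380), and Prickle2 in CH+LIF (-1.46 ± 0.18, adjusted p = 0.00220). Gpc4 was higher in LIF+PD (0.86 ± 0.13, adjusted p = 0.00353) and in CH+LIF (0.50 ± 0.13, adjusted p = 0.0274).

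By list, the Frizzled-turnover and R-spondin receptor genes gave 1 increase and 0 decreases of 3 tested without LIF, 1 and 1 without CH, and 0 and 0 without PD. The other secreted or membrane modulators gave 0 and 4 of 6, 2 and 2, and 1 and 3. Genes of the destruction complex and β-catenin gave 0 and 0 of 10, 0 and 1, and 1 and 1, and the casein kinase 1 and Dishevelled-binding genes 0 and 0 of 7, 1 and 1, and 0 and 0. In the comparisons with no limma call, an unadjusted p below 0.05 was found for 0 of the 3 turnover genes, 0 of the 10 destruction complex genes, and 3 and then 0 of the 7 kinase and Dishevelled-binding genes. The planar polarity genes gave 3 and 2 of 14, 2 and 3, and 0 and 2, and the TCF/LEF factors 1 and 1 of 4 in each comparison. A list of 13 β-catenin target genes, of which 11 were tested, gave 3 and 3 without LIF, 1 and 7 without CH, and 2 and 3 without PD. The lists are short, and these counts stand beside the 18.6%, 25.2% and 25.4% of all genes called in the same comparisons.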

How the data were processed

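RNA of 8 cultures (4 conditions, 2 replicates each) was sequenced from a single end. The authors mapped reads with tophat2 to the mm10 (GRCm38) genome, used Ensembl 75 gene models and discarded reads that mapped more than once. The values used here are FPKM per gene and culture with lower and upper bounds, as deposited by the authors; the submitters' processing notes name TopHat2, Cufflinks and Cuffdiff. The methods describe rRNA depletion and the labels polyA RNA. Read counts were not used here, and FPKM holds only relative depth, so no counting intervals are given.

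Entries with a repeated Ensembl identifier (22) were summed. Genes that reached an FPKM of 1 in 2 or more cultures (12927) were tested with limma 3.58.1 (R 4.3.3) on log2(FPKM + 1), with a mean-variance trend, all 8 cultures in 1 fit and Benjamini-Hochberg adjustment over all genes, after the procedure had been tested on simulated data. Values were summarised and drawn with Python 3.11.15, pandas 2.3.3, numpy 2.4.6 and matplotlib 3.10.9. Genes tested were all named; those called against 2i+LIF are given culture by culture, as are untested genes reaching 0.5, and the other lists by Axin2 and their 2 largest increases and decreases per comparison. Members and lists were chosen with earlier results of these data known. Promoter windows are from RefSeq (GRCm38.p6) and exon overlaps from GENCODE M21. The main fit used no block, since the study's methods use none. Same-numbered replicates did not deviate together (r between -0.0283 and 0.0925 across genes). Alternatives numbered 18: pseudocounts, filters, rescalings, the variance model, the groups fitted, a replicate block and leaving out each culture.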

Additional observations from a re-analysis of the deposited data

How the results depend on the processing

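Of 71 calls over the 6 comparisons of the tested genes, 47 passed under all of the 18 alternatives that retained the gene, and 0 changed direction. By comparison, 8 of 10 were kept without LIF, 10 of 12 without CH and 3 of 11 without PD (Wnt5b, Porcn and Sfrp1), then 13 of 16 for LIF+PD against 2i, 4 of 6 for CH+LIF against 2i and 9 of 16 for CH+LIF against LIF+PD. With an FPKM of at least 1 required in all cultures, which leaves 13 genes, 4, 5, 7, 6, 3 and 6 were called in these comparisons. Of the 10354 genes of that kind, 17.9%, 25.2% and 28.2% were called in the first 3. In the last 3 these genes gave 1346 increases and 1219 decreases, 1174 and 1443, and 1434 and 1783. Fitting only the 2 groups compared left 7 calls for CH+LIF against 2i+LIF, where all 12927 genes gave 1262 increases and 1435 decreases. Leaving out 1 culture assumes that the lone culture varies like the others. For CH+LIF against 2i+LIF the members called fell most when a culture of either condition was left out. For CH+LIF against LIF+PD the fall was largest without CH+LIF replicate 1 or LIF+PD replicate 1. In each of these fits fewer of all genes were called as well.

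With the replicate number as a replicate block, 10, 12, 11, 17, 9 and 17 members were called. Over all 12927 genes the increases and decreases were then 1326 and 1221, 2007 and 1463, 1688 and 1831, 1921 and 1546, 1480 and 1858, and 1719 and 2386. The replicates share only a number, and of the 71 calls only Fzd7 in CH+LIF was lost (limma adjusted p = 0.0520). Rescaling to TPM moved the median log2 difference of all genes from 0.0070 to 0.18 in CH+LIF and from 0.03 to 0.16 in LIF+PD, and the calls over all genes in LIF+PD went from 1913 increases and 1350 decreases to 2640 and 878, those in CH+LIF from 1573 and 1713 to 2918 and 1029 and those in 2i from 1263 and 1145 to 1404 and 887; of the 28 genes' calls it ended 5. Summed over families, the log2 ratio to 2i+LIF moved from 1.87 to 1.64 for the ligands in LIF+PD under quantile normalization and, after rescaling to TPM, from -0.51 to -0.37 for the Frizzled genes in LIF+PD, from -0.02 to 0.18 for them in CH+LIF and from -1.18 to -0.97 for the antagonists in CH+LIF. Members under an FPKM of 1 carry wide deposited bounds.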
